A study of Mus musculus with 16 samples.

Results

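The collagen genes of mouse gonadal white adipose tissue (gWAT), the fat pad beside the testis, were taken as every row of the deposited expression table whose gene name is Col, a number, a and a number. This gave 30 genes of 19373 rows, and 21 of them reached at least 1 FPKM (fragments per kilobase of transcript, scaled to the fragments mapped, a level scaled to transcript length) in at least 4 mice and were tested. RNA came from 16 age-matched male mice on a C57Bl6/J background, 4 in each of 4 groups, fed chow or a high fat diet (HFD) for 20 weeks. Sample labels and study methods name different chow products, so the exact control diet is uncertain. Control mice carried the floxed Mboat7 allele without Cre (Mboat7 flox/flox) and kept the gene, while Mboat7 ASKO mice lost it in adipocytes through Cre under the adiponectin promoter. Mice were fasted for a few hours and perfused with saline before the pad was frozen, and the RNA was that of the whole pad, so every cell type other than the adipocyte kept Mboat7 in both genotypes. The comparisons ask what long HFD feeding does to the collagen genes in each genotype, and what loss of adipocyte Mboat7 does to them on each diet.

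Collagens are extracellular proteins whose chains wind around each other into a stiff helix. Types I, III and V form the fibrils between cells. Type IV builds the net of the basement membrane that wraps each adipocyte and vessel, and type VI forms beaded filaments that tie that net to the fibrils. In fat most collagen RNA is made by progenitor cells and fibroblasts, with basement membrane chains also from endothelial cells and adipocytes. Chains are hydroxylated and glycosylated in the endoplasmic reticulum, trimmed outside the cell and then crosslinked. A build-up of collagen, with type VI as its best known member, is a recognized trait of fat in obesity.

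The table gives no counts, so the depth of the libraries is known only roughly. From the step size of low FPKM values about 228000 to 403000 fragments per mouse were estimated. The step was searched only over a preset span, so an estimate outside the matching span of depths was not possible. By mouse 50.3% to 88.1% of low values came within 0.2 of a whole number of fragments. Evenly spread values would do so in 40% of cases for a step fixed beforehand. The step kept was the best of many tried, which raises the share, so 40% is too low a mark. The estimate is weak, most of all in the mice at the low end. Mboat7, the gene deleted in adipocytes, was at 2.42, 4.33, 0.902 and 4.99 FPKM in control mice on chow and at 0, 1.39, 0 and 2.89 FPKM in Mboat7 ASKO mice on chow. On HFD it was at 0, 0, 2.15 and 1.61 FPKM in control mice and at 1.14, 0, 2.60 and 0 FPKM in Mboat7 ASKO mice. The genotypes overlapped on both diets, so the level of Mboat7 in whole tissue does not check the genotype labels. All 8 adipocyte markers looked for passed the filter, and of 8 epididymis markers only Adam7 is in the table, at 0 in every mouse but 1.

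Sequence upstream of the collagen genes is shown for the 2 genes called between diets, Col3a1 and Col6a1, and for Col6a2 and Col6a3, the partner chains of Col6a1. The bases are those before the transcription start, 5′ to 3′ on the gene's own strand, from RefSeq's GRCm38.p6 promoter table. It held 24 of the 30 members, and Col1a1 is not among them. Windows shown end before the outermost GENCODE M21 start of the gene, which shortens only that of Col6a1. The full Col6a1 window of 250 bases has a GC content of 56.0% and none of the motifs searched. Shares over all windows, given below, use full windows. Capitals mark matches to the TATA box, which was searched as TATAA on both strands, or to the GC box, which was searched as GGGCGG likewise. The CCAAT box was searched in the same way and is in none of the windows shown.
Col3a1 (plus strand, chr1:45311288-45311537): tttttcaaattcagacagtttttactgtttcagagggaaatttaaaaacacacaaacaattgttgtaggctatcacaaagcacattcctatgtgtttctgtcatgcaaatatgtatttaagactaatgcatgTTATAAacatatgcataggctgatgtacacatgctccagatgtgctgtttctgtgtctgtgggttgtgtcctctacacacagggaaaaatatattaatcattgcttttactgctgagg
Col6a1 (minus strand, chr10:76726169-76726294): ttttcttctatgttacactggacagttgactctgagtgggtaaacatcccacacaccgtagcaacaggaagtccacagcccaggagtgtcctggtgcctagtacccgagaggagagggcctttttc
Col6a2 (minus strand, chr10:76623631-76623880): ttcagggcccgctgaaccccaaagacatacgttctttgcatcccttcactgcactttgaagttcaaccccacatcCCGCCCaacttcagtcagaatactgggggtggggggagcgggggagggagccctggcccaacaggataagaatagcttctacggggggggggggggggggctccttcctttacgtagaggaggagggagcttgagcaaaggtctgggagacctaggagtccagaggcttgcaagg
Col6a3 (minus strand, chr1:90843972-90844221): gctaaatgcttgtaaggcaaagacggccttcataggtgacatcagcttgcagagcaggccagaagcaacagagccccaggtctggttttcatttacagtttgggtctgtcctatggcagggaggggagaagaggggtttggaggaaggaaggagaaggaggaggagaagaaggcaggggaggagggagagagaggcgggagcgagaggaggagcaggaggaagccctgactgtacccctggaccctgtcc
In the Col3a1 window the TATA letters occur on both strands and overlap, and its GC content is 35.2% against 51.6% to 59.2% in the other windows. The Col6a2 window shown holds 1 GC box, and no motif searched is in the Col6a1 and Col6a3 windows as printed. The table has another Col6a2 start, whose window (chr10:76623405-76623654) overlaps the one shown and transcribed bases, is not printed, and holds 3 GC boxes. Over the 26 promoter windows of the collagen genes, 11.5% held TATAA, 61.5% the GC box and 26.9% CCAAT within 250 bases before the start, against 22.8%, 32.7% and 33.8% of all 32851 windows of that length in the table. A match of letters is a description, not a site that was shown to be used.

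Col3a1, the chain of type III collagen, was the highest collagen gene in each of the 16 mice, with a mean of 33.8 FPKM. It was followed by Col6a1 at 14.98 FPKM, Col6a2 at 10.96, Col1a2 at 10.7, Col15a1 at 7.17, Col6a5 at 4.79, Col4a1 at 4.70 and Col14a1 at 3.88 FPKM. From Col6a1 downward the per-mouse ranges of neighbors in this order overlapped. The other 13 tested members had means between 0.775 FPKM (Col4a4) and 3.11 FPKM (Col5a2). Of the 9 members below the filter, Col16a1 reached 3.83 FPKM in control HFD mouse 0, and Col4a5, Col4a6 and Col12a1 passed 1 FPKM in 1 mouse each, at 1.66, 1.15 and 1.01 FPKM. Col8a2, Col9a3, Col23a1, Col24a1 and Col27a1 stayed below 1 FPKM in every mouse.

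HFD raised 2 of the 21 tested collagen genes when both genotypes were averaged, Col3a1 and Col6a1, and lowered none. That is 9.52% of the members tested, beside 7.53% of all 13147 tested genes called in either direction and 4.49% called higher on HFD, so the share of members called was near the background. Calls were made with limma on log2(FPKM + 1), the scale of every log2 fold change given here, where the Benjamini-Hochberg adjusted p was under 0.05 and the change exceeded 0.5 in size. Before adjustment 7 members had a p under 0.05, all higher on HFD: Col1a1, Col1a2, Col3a1, Col6a1, Col6a2, Col6a3 and Col6a5. Of all tested genes 19.4% had such a p in either direction and 10.5% higher on HFD. The log2 fold change was above 0 for 16 of the 21 members (76.2%, against 50.5% of all tested genes), and its median was 0.50 against 0.01 over all tested genes.

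Col3a1 lies at chr1:45311538-45349706 on the plus strand of mm10, and 141 of its exon bases are shared with the same-strand gene Gm47302, so reads there could be counted for either. Its level was 26.7, 13.4, 21.7 and 22.0 FPKM in control mice on chow and 22.6, 14.2, 17.1 and 12.3 FPKM in Mboat7 ASKO mice on chow. On HFD it was 122, 40.7, 33.2 and 26.6 FPKM in control mice and 37.5, 47.4, 47.7 and 35.1 FPKM in Mboat7 ASKO mice. All HFD mice but control mouse 3 lay above the highest chow mouse, and that mouse lay just under it. The rise averaged over genotypes was 1.22 on the log2 scale (SE 0.286, 95% interval 0.62 to 1.83, limma adjusted p = 0.0127; two-sided exact permutation p = 0.000311, 8 mice against 8). Without control HFD mouse 0 it was 0.99 (limma adjusted p = 0.00982). Since the RNA is from whole tissue, more cells of a collagen-making type and more Col3a1 RNA per cell cannot be told apart, here or for the genes below.

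Col6a1 encodes the α1 chain of type VI collagen and lies at chr10:76708792-76726168 on the minus strand. It was at 10.6, 11.3, 7.74 and 10.4 FPKM in control mice and 6.03, 13.2, 5.57 and 9.95 FPKM in Mboat7 ASKO mice on chow. On HFD the control mice had 18.7, 31.7, 21.8 and 23.9 FPKM and the Mboat7 ASKO mice 22.3, 13.7, 15.4 and 17.6 FPKM. Every HFD mouse was above every chow mouse, which was so for no other tested member and for 1.46% of all tested genes. The averaged rise was 1.07 (SE 0.236, 95% interval 0.57 to 1.56, limma adjusted p = 0.00871), and the exact permutation p of 0.000155 is the smallest that 8 mice against 8 can give.

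**Figure D1:**
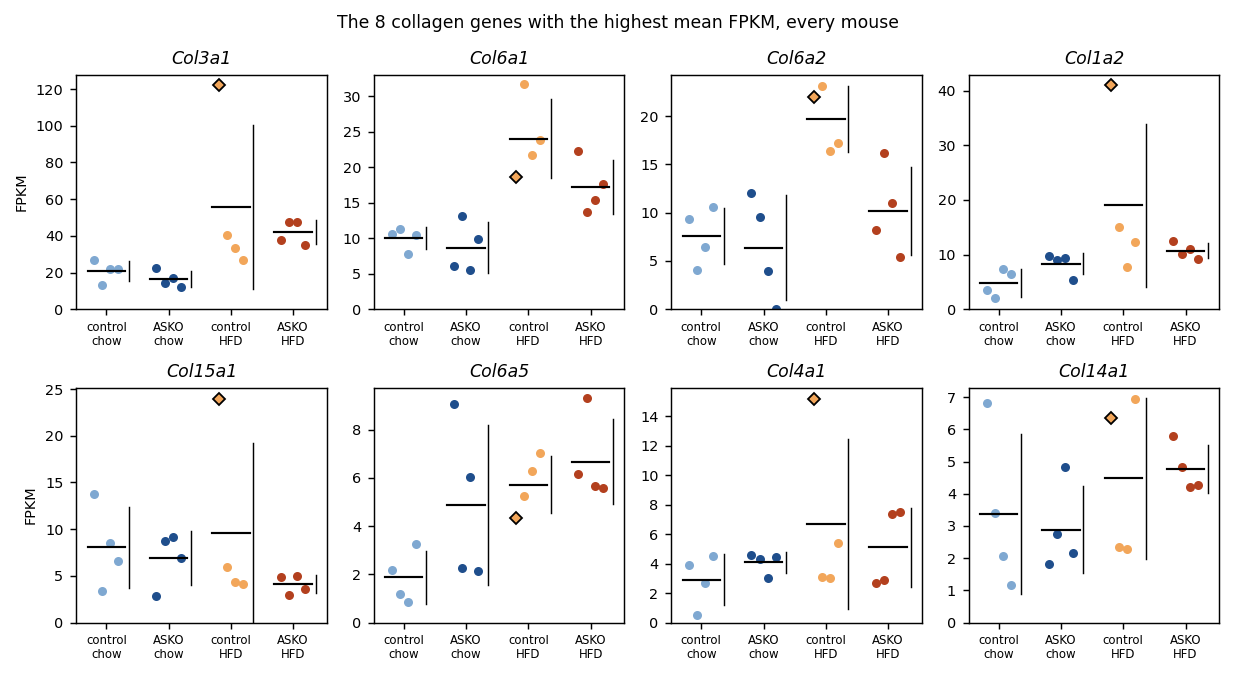
FPKM (linear axis from 0) of the 8 collagen genes with the highest mean, 1 point per mouse in 4 groups of 4, with the group mean (horizontal line) and 1 SD to either side, drawn no lower than 0 (vertical line). The outlined diamond is control HFD mouse 0, at 122 FPKM for Col3a1, and Col6a1 alone has all 8 HFD mice above all chow mice.

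The partner chains of Col6a1 had higher means on HFD but did not pass the adjusted limit. Col6a2, the α2 chain, lies at chr10:76595762-76623630 on the same strand as Col6a1. It was at 9.37, 4.11, 6.42 and 10.5 FPKM in control mice on chow, 12.1, 9.59, 3.92 and 0 FPKM in Mboat7 ASKO mice on chow, 22.0, 23.1, 16.3 and 17.2 FPKM in control mice on HFD, and 8.16, 16.2, 10.97 and 5.40 FPKM in Mboat7 ASKO mice on HFD. The 4 control HFD mice stood above all others, while the Mboat7 ASKO HFD mice overlapped both chow groups. The averaged log2 fold change of Col6a2 was 1.18 (SE 0.445, limma adjusted p = 0.135). Without Mboat7 ASKO chow mouse 3, the mouse at 0 FPKM, it was 0.79. Col6a3 encodes the α3 chain, from whose end the fragment endotrophin is cut. It was at 1.65, 2.45, 0.273 and 1.32 FPKM in control mice on chow, 0.915, 0.794, 1.22 and 0.855 FPKM in Mboat7 ASKO mice on chow, 4.002, 6.79, 1.92 and 0.843 FPKM in control mice on HFD, and 3.52, 2.19, 5.43 and 2.39 FPKM in Mboat7 ASKO mice on HFD. The Mboat7 ASKO groups did not overlap and the control groups did, with an averaged log2 fold change of 0.93 (SE 0.350, limma adjusted p = 0.135). Per transcript length Col6a3 had the lowest mean of these chains, and the ratio of Col6a1 to Col6a3 FPKM ran from 2.83 to 28.3 over the mice. The protein itself joins 1 of each of these chains.

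Col6a5, a longer chain related to α3, was at 2.17, 1.197, 0.841 and 3.27 FPKM in control mice on chow and 9.07, 2.26, 6.04 and 2.15 FPKM in Mboat7 ASKO mice on chow. On HFD it was at 4.34, 5.23, 6.28 and 7.05 FPKM in control mice and 6.16, 9.31, 5.66 and 5.58 FPKM in Mboat7 ASKO mice. The chow Mboat7 ASKO mice split into a high and a low pair, so the diets overlapped in that genotype and not in control mice (averaged log2 fold change 0.91, SE 0.324, limma adjusted p = 0.108). Col6a6, the remaining type VI chain tested, had a chow mean of 0.624 and an HFD mean of 1.08 FPKM (SD 0.382 and 0.581, n = 8 each), with a log2 fold change of 0.33 and a limma adjusted p of 0.568. All 5 tested type VI chains thus had a log2 fold change above 0 (median 0.93), 1 of them past the limits.

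Among the fibril chains Col1a2, the α2 chain of type I collagen, was at 3.52, 1.97, 7.29 and 6.49 FPKM in control mice and 9.66, 8.96, 9.35 and 5.43 FPKM in Mboat7 ASKO mice on chow. On HFD it was at 41.0, 15.1, 7.78 and 12.3 FPKM in control mice and 12.5, 10.1, 10.97 and 9.20 FPKM in Mboat7 ASKO mice. The averaged log2 fold change was 0.99 (SE 0.328, limma adjusted p = 0.0820), with 6 of 8 HFD mice above the highest chow mouse. Col1a1, the α1 chain that joins it, was at 1.06, 0, 0 and 0.555 FPKM in control mice on chow, 0, 1.80, 0.483 and 0 FPKM in Mboat7 ASKO mice on chow, 11.1, 1.71, 1.05 and 2.04 FPKM in control mice on HFD, and 2.53, 0.465, 0.806 and 0 FPKM in Mboat7 ASKO mice on HFD. It was listed at 0 in 5 mice, and its averaged log2 fold change was 0.90 (SE 0.406, limma adjusted p = 0.232), falling to 0.62 without control HFD mouse 0 (adjusted p = 0.361). Col1a1 was below Col1a2 in every mouse, by 1.97 to 29.9 FPKM.

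The type V chains, which sit inside type I fibrils and limit their width, had averaged log2 fold changes of both signs, all within their error of 0. Col5a1 was at 0, 0.423, 0.868 and 1.01 FPKM in control mice on chow, 0.421, 1.25, 1.26 and 1.58 FPKM in Mboat7 ASKO mice on chow, 5.998, 0, 0.669 and 2.22 FPKM in control mice on HFD, and 2.33, 1.96, 1.88 and 1.09 FPKM in Mboat7 ASKO mice on HFD. Col5a2 was at 7.80, 0.459, 1.28 and 3.01 FPKM, 3.45, 1.26, 2.58 and 0.835 FPKM, 0.671, 3.89, 6.04 and 0 FPKM, and 3.82, 4.55, 8.64 and 1.47 FPKM in the same order of groups. Col5a3 was at 4.09, 2.29, 4.13 and 1.67 FPKM, 3.74, 4.11, 1.26 and 2.10 FPKM, 8.83, 4.33, 0.436 and 1.71 FPKM, and 1.06, 1.29, 1.71 and 0 FPKM. The diets overlapped for each of these genes, and their averaged log2 fold changes were 0.56, 0.28 and −0.49 (limma adjusted p = 0.463, 0.839 and 0.586).

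The basement membrane chains gave no call. Col4a1 and Col4a2, the main type IV chains, lie head to head on chromosome 8 with exons that overlap by 22 bases, at chr8:11198423-11312826 on the minus strand and chr8:11312805-11449287 on the plus strand. The table gives them 1 shared locus, and whether strand entered the authors' counting is not given in the sources used here. Col4a1 was at 3.92, 0.541, 2.71 and 4.49 FPKM in control mice on chow, 4.58, 4.30, 3.06 and 4.44 FPKM in Mboat7 ASKO mice on chow, 15.2, 3.09, 3.03 and 5.42 FPKM in control mice on HFD, and 2.69, 2.90, 7.36 and 7.54 FPKM in Mboat7 ASKO mice on HFD. Col4a2 was at 2.02, 1.81, 2.32 and 0.869 FPKM, 3.19, 0.603, 1.71 and 1.60 FPKM, 2.75, 4.54, 2.67 and 0 FPKM, and 1.03, 2.72, 3.50 and 3.32 FPKM in the same groups. The diets overlapped for both, with averaged log2 fold changes of 0.52 (95% interval −0.29 to 1.33) and 0.27 (−0.53 to 1.07). Col4a3 and Col4a4, chains best known from the kidney, ran from 0.528 to 6.20 FPKM and from 0 to 2.81 FPKM over the mice, with log2 fold changes of −0.12 and 0.07. The upper bound for Col4a1 lies above the 1.22 of Col3a1 and that for Col4a2 below it.

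Col15a1 and Col18a1, chains of basement membrane zones that carry the anti-angiogenic endostatin-type ends, had log2 fold changes below 0. Col15a1 was at 13.8, 3.41, 8.49 and 6.61 FPKM in control mice on chow, 2.85, 8.74, 9.13 and 6.90 FPKM in Mboat7 ASKO mice on chow, 23.9, 5.998, 4.35 and 4.13 FPKM in control mice on HFD, and 4.88, 2.96, 4.94 and 3.59 FPKM in Mboat7 ASKO mice on HFD. All HFD mice except control mouse 0 were at 5.998 FPKM or less, within the chow range, and the averaged log2 fold change was −0.28 (95% interval −1.08 to 0.52). Col18a1 had a chow mean of 3.01 and an HFD mean of 1.86 FPKM (SD 1.62 and 0.830, n = 8 each), with a log2 fold change of −0.42 (−1.18 to 0.33). Col14a1, which lies on the surface of fibrils, was at 6.83, 3.40, 2.05 and 1.16 FPKM, 1.81, 2.75, 4.82 and 2.16 FPKM, 6.34, 2.36, 2.28 and 6.94 FPKM, and 5.80, 4.82, 4.21 and 4.26 FPKM in the 4 groups in that order. Its diets overlapped, with a log2 fold change of 0.50 and a limma adjusted p of 0.484. The short, net-forming chains Col8a1 and Col10a1, and Col28a1, ranged from 0 to 2.87, 0 to 5.45 and 0 to 2.77 FPKM, with log2 fold changes of 0.60, −0.35 and 0.12, none past the limits.

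Summed over all 30 genes, collagen RNA was 80.3 ± 16.6 FPKM on chow (SD, n = 8, range 58.4 to 106) and 151 ± 62.8 FPKM on HFD (range 113 to 302). The sums are descriptions and carry no test, and Col3a1 alone made up 23.3% of them on chow and 31.0% on HFD. Without Col3a1 they were 61.6 ± 13.1 and 102 ± 33.6 FPKM, with the lowest HFD mouse at 78.0 FPKM, just under the highest chow mouse at 78.8 FPKM. The fibrillar sum was 32.3 ± 8.37 FPKM on chow and 74.5 ± 47.7 FPKM on HFD, and the beaded-filament sum 21.5 ± 5.64 and 46.2 ± 10.6 FPKM. The basement membrane sum was 9.02 ± 1.45 and 11.8 ± 5.34 FPKM. The share of Col15a1 and Col18a1 in the collagen sum was 13.1% ± 2.86 on chow and 5.28% ± 1.57 on HFD, with ranges that overlapped only between 7.74% and 8.80%. The share depends on the rest of the sum, which was higher on HFD. The summed level of these genes overlapped widely, at 10.5 ± 3.35 FPKM on chow (range 7.36 to 17.2) and 8.71 ± 7.28 FPKM on HFD (range 4.27 to 26.5).

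**Figure D2:**
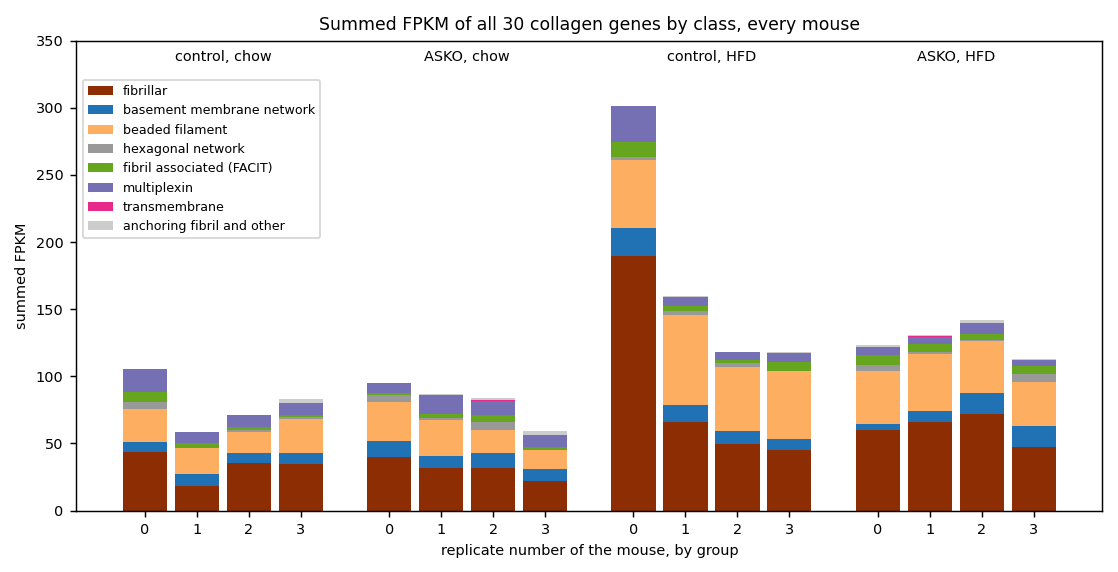
Summed FPKM of the 30 collagen genes (axis from 0) in each of the 16 mice, by replicate number within the 4 groups, with colors for the collagen classes. Chow mice lie between 58.4 and 106 FPKM and HFD mice between 113 and 302 FPKM, the highest being control HFD mouse 0, whose bar is mostly fibrillar.

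Control HFD mouse 0 stood apart among the collagen genes. It was the highest of the 16 mice for 7 of the 21 tested members (Col1a1, Col1a2, Col3a1, Col4a1, Col5a1, Col5a3 and Col15a1), its fibrillar chains made up 63.0% of its collagen sum against at most 50.6% in any other mouse on HFD, and its beaded-filament share of 16.7% was the lowest of the 16. Control HFD mouse 1 led another 5 members, 3 of them type VI chains (Col6a1, Col6a2, Col6a3, Col4a2 and Col4a4). Within the 4 control HFD mice, mouse 0 led 8 of the 21 members, beside 26.1% of all tested genes. There mouse 1 led 7 of the 21, beside 27.1% of all tested genes, so its count was near the background. Mouse 0 had the largest estimated depth, 403000 fragments, and a summed level of 8 progenitor and fibroblast markers of 60.7 FPKM, the lowest of its group. The part of depth or of cell content in its values was not tested.

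Within each genotype no collagen gene passed the limits between diets. In control mice limma called 0 of 21 members, beside 2.91% of all tested genes, and 5 had an unadjusted p under 0.05, all higher on HFD, beside 14.2% of all tested genes in either direction and 7.73% higher. They were Col1a2 (log2 fold change 1.64, SE 0.464, adjusted p = 0.0755), Col1a1 (1.498, SE 0.574, adjusted p = 0.215), Col6a5 (1.29, SE 0.458, adjusted p = 0.174), Col6a1 (1.17, SE 0.333, adjusted p = 0.0774) and Col3a1 (1.14, SE 0.404, adjusted p = 0.174). By the exact permutation test 4 members reached its smallest p for 4 mice against 4, 0.0286, namely Col1a2, Col6a1, Col6a2 and Col6a5, for which every HFD mouse was above every chow mouse, as for 4.45% of all tested genes. The control values of Col3a1 and Col1a1 leaned on mouse 0, being 0.67 and 0.94 without it.

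In Mboat7 ASKO mice limma again called 0 of 21 members, beside 3.43% of all tested genes, and 3 had an unadjusted p under 0.05, all higher on HFD, beside 15% of all tested genes in either direction and 8.23% higher, so their number was near the background. These were Col3a1 (log2 fold change 1.31, SE 0.404, adjusted p = 0.0936), Col6a3 (1.12, SE 0.496, adjusted p = 0.291) and Col6a1 (0.96, SE 0.333, adjusted p = 0.147). The same 3 were those in which every HFD mouse lay above every chow mouse (exact permutation p = 0.0286, the smallest possible), as 5.18% of all tested genes did. Without control HFD mouse 0, which is not in this comparison but enters the shared estimate of spread, Col3a1 passed the limits with the same fold change (limma adjusted p = 0.0199).

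**Figure D3:**
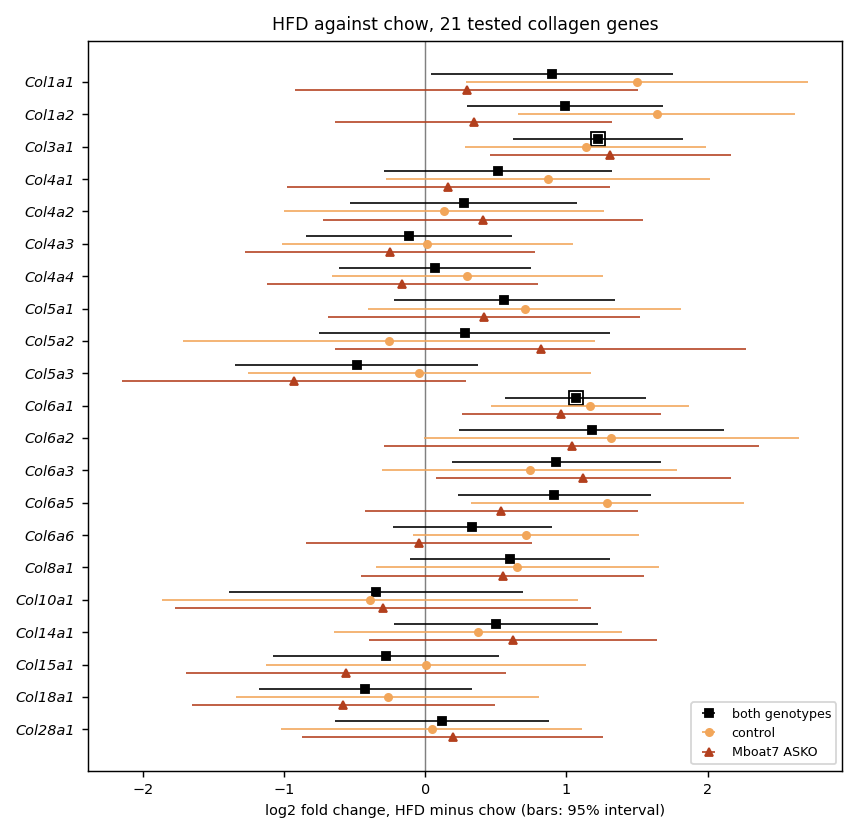
Log2 fold change of FPKM + 1, HFD minus chow, with 95% intervals (horizontal bars) for the 21 tested collagen genes: black squares for both genotypes averaged (8 mice against 8), orange circles for control mice and red triangles for Mboat7 ASKO mice (4 against 4). A black outline marks the calls, Col3a1 at 1.22 and Col6a1 at 1.07, and the black squares of Col4a3, Col5a3, Col10a1, Col15a1 and Col18a1 lie below 0.

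Loss of adipocyte Mboat7 gave no collagen call on either diet. On chow limma called 0 of 21 members, none had an unadjusted p under 0.05 (4.8% of all tested genes did), and 0.00761% of all tested genes were called. Col6a6 was the 1 member whose groups did not overlap, at 0.321, 0.491, 0.552 and 0 FPKM in control mice and 1.27, 0.7505, 0.907 and 0.704 FPKM in Mboat7 ASKO mice, as 2.19% of all tested genes did not. Its log2 fold change was 0.52 (95% interval −0.28 to 1.32, limma adjusted p = 0.983), with an exact permutation p of 0.0286, the smallest possible. These Col6a6 values are near the floor. By the rough depth estimate they stand for 0 to 1.7 fragments in control mice and 2.0 to 2.5 in Mboat7 ASKO mice. The widest difference on chow was that of Col6a5, 0.93 (−0.04 to 1.90, limma adjusted p = 0.983), with the groups overlapping.

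On HFD limma also called 0 of 21 members, with none at an unadjusted p under 0.05 (5.15% of all tested genes) and 0.00761% of all tested genes called. Col6a2 was the 1 member whose groups did not overlap, with every Mboat7 ASKO mouse below every control mouse, beside 3.38% of all tested genes without overlap. Its values, given above, come closest at 16.2 FPKM in a Mboat7 ASKO mouse and 16.3 FPKM in a control mouse. Its log2 fold change was −0.97 (95% interval −2.29 to 0.36, limma adjusted p = 0.983; exact permutation p = 0.0286, the smallest possible). The summed type VI chains, which include Col6a2, were at 47.7 to 67.4 FPKM in control mice and 32.5 to 42.5 FPKM in Mboat7 ASKO mice, given as a description with no test. Because Col6a2 is part of it, this sum is not a result separate from Col6a2. Each other tested type VI chain overlapped between the genotypes. Other sums overlapped between the genotypes on HFD. The fibrillar sum was at 44.8 to 190 and 47.6 to 71.7 FPKM, and the basement membrane sum at 8.15 to 20.7 and 4.47 to 15.8 FPKM. All collagen genes together were at 118 to 302 and 113 to 142 FPKM. For Col3a1 the genotype difference on HFD was −0.14 (95% interval −0.997 to 0.71) and for Col6a1 −0.45 (−1.16 to 0.25), so changes of either sign remain within the error.

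**Figure D4:**
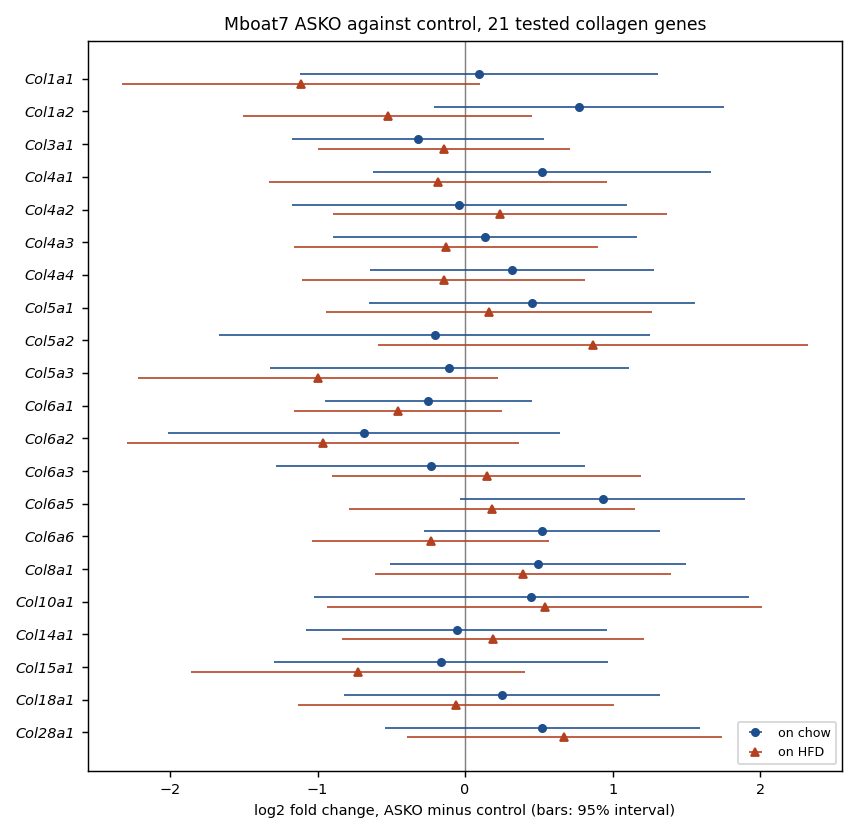
Log2 fold change of FPKM + 1, Mboat7 ASKO minus control, with 95% intervals for the 21 tested collagen genes on chow (blue circles) and on HFD (red triangles), 4 mice against 4. Every interval includes 0, among them Col6a2 on HFD at −0.97 and Col6a6 on chow at 0.52.

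The diet effects were also compared between the genotypes through the interaction term. limma called 0 of 21 members and 0% of all tested genes, and none of the members had an unadjusted p under 0.05, beside 6.29% of all tested genes. Col1a2 was the 1 member with a permutation p under 0.05. Its HFD rise was 1.64 in control and 0.34 in Mboat7 ASKO mice, an interaction of −1.30 (95% interval −2.68 to 0.09, limma adjusted p = 0.796). The exact permutation p was 0.0437 over 4900 arrangements, not adjusted over the 21 members. Genotype labels were rearranged within each diet, so this p assumes no genotype effect on either diet and does not test the interaction alone. For Col3a1 the interaction was 0.17 (−1.03 to 1.38) and for Col6a1 −0.20 (−1.20 to 0.79).

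The enzymes and partners of collagen were read from lists of genes by role, to be set beside the 7.53% of all tested genes called for the averaged diet. Of 19 tested genes for chain modification and folding 1 was called, Colgalt1, which adds galactose to hydroxylysine in collagen (log2 fold change 1.59, SE 0.332, limma adjusted p = 0.00589). Of 10 tested genes for propeptide removal and crosslinking 3 were called, all higher: Pcolce (1.61, SE 0.429) and Pcolce2 (1.41, SE 0.308), which enhance the trimming of procollagen, and the crosslinking enzyme Lox (1.199, SE 0.337). Lox was at 2.04 to 6.36 FPKM in the chow mice and at 4.32 to 21.8 FPKM in the HFD mice, and the diets overlapped only through control HFD mouse 0. The medians of these lists were 0.42 and 0.65, against 0.01 for all tested genes. Within a genotype Colgalt1 was the only gene of both lists called, in Mboat7 ASKO mice (1.82, SE 0.470).

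Of 14 proteins that bind collagen in the matrix 4 were called higher on HFD and 1 lower. Lum, a proteoglycan that sets fibril spacing, was at 15.9 to 37.4 FPKM in the chow mice and at 94.5 to 215 FPKM in the HFD mice, without overlap (log2 fold change 2.65, SE 0.215, limma adjusted p = 7.17e-07). Postn, a matrix protein of growing connective tissue, rose by 1.39 (SE 0.266) and Bgn, a proteoglycan, by 1.26 (SE 0.240), each without overlap of the diets. The 4th was Sparc at 0.67, and Thbs1, a secreted glycoprotein that activates TGF-beta, fell by 1.35 (SE 0.398, limma adjusted p = 0.0474). Thbs1 was at 7.10 to 54.2 FPKM on chow and 2.69 to 7.73 FPKM on HFD, so the diets overlapped. It was highest in control chow mice 0 and 2, at 54.2 and 39.0 FPKM. Within genotypes Lum was called in both, by 2.36 in control and 2.94 in Mboat7 ASKO mice, Bgn only in control mice and Postn only in Mboat7 ASKO mice, and no gene of the list was called for the interaction.

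Of 6 tested collagen receptors 2 were called, both higher on HFD. Mrc2, which takes up collagen for breakdown, was at 0 to 1.44 FPKM on chow and 0.922 to 4.93 FPKM on HFD (log2 fold change 1.16, SE 0.305). Lair1, an inhibitory receptor of immune cells, was at 0 to 1.78 FPKM on chow, 0.932 to 3.47 FPKM in control mice on HFD, and 7.07, 14.7, 8.30 and 17.9 FPKM in Mboat7 ASKO mice on HFD (1.89, SE 0.340). The Mboat7 ASKO HFD mice stood above all other mice for Lair1, and the genotype effect on HFD was not called. Between the genotypes on HFD 3.38% of all tested genes did not overlap. Within a genotype Lair1 was called only in Mboat7 ASKO mice (2.73, SE 0.481) and Mrc2 only in control mice (1.85, SE 0.432). The interaction called 0 of the receptors. None of 9 tested basement membrane partners of type IV collagen (laminins, nidogens, perlecan and peroxidasin) was called by limma in any contrast, with 1 at an unadjusted p under 0.05 for the averaged diet, beside 19.4% of all tested genes. Of 13 tested TGF-beta genes 0 were called for the averaged diet (2 at an unadjusted p under 0.05), and Tgfbr1 was called higher on HFD in Mboat7 ASKO mice alone (2.32, SE 0.592), a difference between genotypes that the interaction did not call. On chow Tgfbr1 was at 4.06, 0.861, 0 and 3.65 FPKM in Mboat7 ASKO mice, below all control mice at 5.45 to 7.63 FPKM. There 2.19% of all tested genes did not overlap, and the genotype effect was not called. On HFD the genotypes overlapped for Tgfbr1, at 1.24 to 11.4 FPKM in control and 7.61 to 16.9 FPKM in Mboat7 ASKO mice.

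Cell type markers that moved with diet are given beside these results, and their part in the collagen values was not tested. Of 8 macrophage markers 7 were called higher on HFD, and their summed level ran from 219 to 269 FPKM on chow and from 567 to 1144 FPKM on HFD. Of 8 adipocyte markers 5 were called lower, with sums of 7831 to 23881 FPKM on chow and 4186 to 9743 FPKM on HFD. Of the markers of cells that make most collagen, 0 of 8 progenitor and fibroblast markers were called by limma (1 at an unadjusted p under 0.05), with sums of 48.6 to 91.5 FPKM on chow and 60.7 to 118 FPKM on HFD. Their log2 fold change was above 0 for 6 of the 8, with a median of 0.46, beside 0.50 for the collagen genes and 0.01 for all tested genes. For 8 endothelial markers the number called was also 0 (0 at an unadjusted p under 0.05), with 32.7 to 73.5 and 36.9 to 98.5 FPKM. Of these 8, 6 had a log2 fold change above 0, and the median was 0.33. Of 6 tested mural and smooth muscle markers 0 were called by limma (0 at an unadjusted p under 0.05), at 32.7 to 117 FPKM on chow and 30.4 to 89.6 FPKM on HFD. Of 5 tested mesothelial markers 1 was called, Lrrn4, lower on HFD and at 0 in every HFD mouse. Of the same markers 4 had an unadjusted p under 0.05, each lower on HFD, the median log2 fold change of the list was −1.33, and their sum was 10.02 to 35.6 FPKM on chow and 0 to 12.7 FPKM on HFD. Of 4 tested Schwann cell markers 1, Scn7a, was called lower and no other had an unadjusted p under 0.05, with sums of 9.03 to 23.5 and 7.24 to 22.2 FPKM. Of 6 skeletal muscle markers 2 are in the table and 1 was tested and not called (unadjusted p not under 0.05), their sum reaching at most 13.3 FPKM on chow and 9.44 FPKM on HFD. No marker of any of these lists was called between genotypes on either diet.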

How the data were processed

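RNA-seq of gWAT from 16 male mice was analysed. The authors trimmed reads, mapped them with STAR to mm10 using GENCODE gene models, and deposited FPKM per gene and mouse from Cufflinks. The Cufflinks normalization setting, the GENCODE release and the use of strand are not given in the sources used here, and read counts could not be recovered, so no count test was run. The kit is described as stranded, and the labels and the study's methods name different sequencers.

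Identifiers were matched to GENCODE M21 (99.6% found), 22 gene names that a spreadsheet had turned into dates were replaced, and 20 repeated symbols were kept once. The 13147 genes that reached 1 FPKM in 4 or more mice were fitted as log2(FPKM + 1), which understates the change of low genes. limma 3.58.1 in R 4.3.3 used all 4 groups in one fit with an intensity trend, and p-values were adjusted by Benjamini-Hochberg over all tested genes within each contrast. Two-sided exact permutation tests on mean log2(FPKM + 1) stand beside it. The script was tested on simulated data. Python 3.11.15, pandas 2.3.3, numpy 2.4.6 and matplotlib 3.10.9 made tables and plots.

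Every mouse's value is given for the members called, the 8 with the highest mean, the partner chains Col1a1, Col4a2 and Col6a3, the type V chains and Mboat7, while the other members are given by range or mean. From the pathway lists up to 3 called genes per direction, list and contrast are named by fold change, some with ranges, and the cell marker lists are given by counts and sums. The 4th called gene of the matrix list, Sparc, Lair1's values per mouse, the values of Thbs1, Tgfbr1, Col6a6 on chow and Col16a1 were added after their values were seen. Members and lists were chosen with earlier results of these data known. A listed gene held under an older symbol (Ctgf for Ccn2) was matched by identifier. Titles number the mice 0 to 3 in each group, and these are different animals. Alternatives were another pseudocount, filters, scalings, weights, fits of only the groups compared, no trend, no limit on the fold change, robust estimation, a replicate block and leaving out each mouse.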

Additional observations from a re-analysis of the deposited data

Results flagged for a closer look

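Of 100 groups of 4 mice looked at (the tested collagen genes and the library measures), 13 held a mouse that lay apart from its group, and about 5 are to be had by chance. In control HFD mouse 0, Col3a1 was at 122 FPKM against 26.6 to 40.7 in the rest of its group, Col1a1 at 11.1 against 1.05 to 2.04, and Col15a1 at 23.9 against 4.13 to 5.998, and its estimated fragments were 403000 against 299000 to 304000. Without this mouse Col3a1 and Col6a1 were still called for the averaged diet.

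In control mice on chow, Col4a3 was at 6.20 FPKM in mouse 1 against 1.28 to 1.69 in the others, Col8a1 at 1.07 in mouse 2 and Col28a1 at 2.77 in mouse 3, both at 0 in the others. Mouse 1 of that group also had an FPKM sum of 772397 against 611890 to 636205 and 41.9% of it in its 10 highest genes against 35.4% to 35.8%. In Mboat7 ASKO mice, Col1a2 was at 5.43 FPKM in chow mouse 3 against 8.96 to 9.66. On HFD Col6a5 was at 9.31 FPKM in mouse 1 against 5.58 to 6.16, Col8a1 at 2.87 in mouse 3 against 1.03 to 1.34, and mouse 3 had 54.2% of its FPKM sum in its 10 highest genes against 38.7% to 39.2%.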

How the results depend on the processing

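Col3a1 and Col6a1 were called for the averaged diet under every alternative run, and no other count of called collagen genes for that contrast was more than 1.5 times away from 2. Of 160 recomputed counts 4 moved, each from 0. In control mice a filter of at least 5 FPKM, which leaves 8 members to test, gave 2 calls (Col1a2 and Col6a1), and leaving out single mice gave 0 to 1, the 1 being Col1a2 without control HFD mouse 2 (log2 fold change 1.95, adjusted p = 0.0382). In Mboat7 ASKO mice array weights gave 1 (Col3a1), and leaving out single mice gave 0 to 1, the 1 being Col3a1 without control HFD mouse 0. For the averaged diet Col1a2 was also called without control HFD mouse 2 (adjusted p = 0.0407) and Col6a5 without Mboat7 ASKO chow mouse 0 (adjusted p = 0.0498). Fold changes of single genes were recomputed only for the 15 pairs of a member and a contrast with an unadjusted p under 0.05. Of 379 such values 372 kept direction and side of the limits, 7 passed them anew and 0 turned sign. Those that moved over 1.5 times without a change of call were, with pseudocount 0.1, Col1a1 (2.04 for the averaged diet, 3.17 in control mice) and Col6a3 (1.39, averaged), and, without control HFD mouse 0, Col1a1 (0.94) and Col3a1 (0.67) in control mice. Quantile normalization put 14 of 21 members above 0 for the averaged diet in place of 16.

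The replicate numbers did not pair the mice: deviations of same-numbered mice correlated between −0.187 and 0.152. With the number as a replicate block the averaged diet again gave 2 calls and the other contrasts 0. The precision of genes at a few FPKM is unknown without counts, so a missing call among them says little.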

Other observations

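Per transcript length, Col1a1 averaged 1.47 FPKM over the 16 mice and its partner chain Col1a2 10.7 FPKM, although type I collagen joins more Col1a1 than Col1a2 chains. Col1a1 was near the floor, with a median of 1.5 fragments by the rough depth estimate and 0 FPKM in 5 mice. Whether the difference lies in the tissue or in the quantification was not tested.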
